A study of Homo sapiens with 24 samples.

Results

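The genes described here are 9 that act on JAK signalling, most of them as brakes: SH2B3, CBL, CBLB, PTPN1, PTPN2, PTPN6, PTPN11, PIAS1 and UBASH3B. They were taken by gene symbol from a table of 34213 genes, a list made with earlier results of these data known, and all 9 passed the low-count filter that left 16076 genes for testing. RNA was sequenced from HEL cells, an established human erythroleukaemia line that carries an activating mutation of the kinase JAK2. The cells received the solvent DMSO or 500 nM of a JAK inhibitor for 4 h or 48 h. The 5 inhibitors were ruxolitinib, momelotinib, fedratinib, itacitinib and pacritinib. Each of the 12 groups had 2 libraries, so every group value rests on n = 2. The labels do not say that the 2 libraries came from separate cultures, so the p-values reflect the spread of these libraries alone, and that spread may be technical.

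Cytokine receptors such as those for erythropoietin and thrombopoietin hold a JAK kinase on their inner side, and the active kinase phosphorylates the receptor, itself and STAT transcription factors. Several proteins end that signal. SH2B3 (also called LNK) is an adaptor of blood cells that binds phosphorylated JAK2 and its receptors and restrains them. CBL and CBLB are ubiquitin ligases that mark active receptors and kinases for removal, and UBASH3B (also called STS-1 or TULA-2) is a phosphatase that binds CBL and dephosphorylates tyrosine kinases. PTPN1 (PTP1B), PTPN2 (TC-PTP) and PTPN6 (SHP-1) are tyrosine phosphatases that act on JAKs, STATs or their receptors. PTPN11 (SHP-2) is a close relative of PTPN6 that mostly passes receptor signals on to the RAS-ERK pathway. PIAS1 is a SUMO ligase that restrains transcription by STAT factors.

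In GRCh38 coordinates (GENCODE 29), SH2B3 (ENSG00000111252) lies on chromosome 12 from 111405948 to 111451623 on the plus strand. CBL (ENSG00000110395) lies on chromosome 11 from 119206276 to 119313926, and UBASH3B (ENSG00000154127) on the same chromosome from 122655675 to 122814473, both on the plus strand. CBLB (ENSG00000114423) lies on the minus strand of chromosome 3 from 105655461 to 105869552. PTPN1 (ENSG00000196396) occupies 50510321 to 50585241 of chromosome 20, and PTPN2 (ENSG00000175354) occupies 12785478 to 12929643 of chromosome 18 on the minus strand. PTPN6 (ENSG00000111679) and PTPN11 (ENSG00000179295) both lie on the plus strand of chromosome 12, from 6946468 to 6961316 and from 112418351 to 112509913. PIAS1 (ENSG00000033800) lies on chromosome 15 from 68054179 to 68198603. Whether reads were counted by strand is not given in the sources used here, so reads in exons shared with a gene on the other strand cannot be assigned. Such exons made up 30.3% of the exon bases of PIAS1 (shared with CALML4), 4.34% of CBL (MCAM), 3.41% of PTPN1 (AL133230.1), 1.58% of PTPN11 (RPL6) and 1.21% of SH2B3 (ATXN2). CALML4 had 4673 counts over all libraries against 73386 for PIAS1. RPL6, in contrast, had 687769 counts against 355833 for PTPN11.

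The promoters of UBASH3B and SH2B3 are shown because these were the members that fell furthest at 4 h, and both fell with ruxolitinib and with momelotinib. Each line gives the 250 bases before the start site, 5′ to 3′ on the gene's own strand, from RefSeq on GRCh38.p14. UBASH3B covers chr11:122655472-122655721 and SH2B3, at the first of its 2 listed starts, chr12:111405673-111405922, both on the plus strand. Capitals mark CCGGAA or its complement, the core that ETS factors bind, a motif chosen after the values were seen.
UBASH3B: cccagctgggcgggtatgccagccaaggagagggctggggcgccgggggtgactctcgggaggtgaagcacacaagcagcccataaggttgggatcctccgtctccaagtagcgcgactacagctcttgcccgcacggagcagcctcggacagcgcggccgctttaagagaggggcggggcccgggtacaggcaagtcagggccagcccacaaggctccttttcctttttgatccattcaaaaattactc
SH2B3: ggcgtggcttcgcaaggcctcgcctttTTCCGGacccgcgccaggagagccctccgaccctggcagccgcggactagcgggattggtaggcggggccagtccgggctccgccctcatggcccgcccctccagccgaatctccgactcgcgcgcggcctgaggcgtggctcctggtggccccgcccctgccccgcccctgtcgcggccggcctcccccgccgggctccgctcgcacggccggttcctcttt
The set of RefSeq promoter windows used here held 14 windows of 7 of the 9 genes, and none of CBL or PTPN11. Some of the CBLB windows overlap each other, and the PTPN2 window (chr18:12840963-12841212) lies inside the gene. So few windows cannot show a difference from the shares of all windows given next. TTCNNNGAA, the palindrome that STAT dimers bind, was in 0 of these 14 windows, and in 6.57% of all 35116 promoter windows of this length. The form with 1 more base between TTC and GAA was likewise in 0 of 14, against 5.38% of all windows. CCGGAA on either strand was in 2 of the 14, the first SH2B3 window and that of PTPN1, against 14.5% of all windows. In the printed windows the one match of any of the 3 motifs is that in capitals, so none overlap. G and C made up 76% of the SH2B3 window and 62.4% of the UBASH3B window, against a median of 58% over all windows.

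Total counts per library ranged from 32153866 to 56618281. Markers of erythroid and megakaryocytic cells were present in every library, GATA1 at 175 to 233 CPM (counts scaled to library size) and ITGA2B at 710 to 905 CPM, whereas CD3E, COL1A1, EPCAM and ALB stayed at or below 1.02 CPM. Mitochondrial rRNA (MT-RNR1 with MT-RNR2) made up between 0.00715% and 0.0181% of counts with DMSO at 4 h and up to 0.128% with pacritinib at 48 h. The RN7SL genes took 2.42% to 4.76%, lowest with DMSO at 4 h. Both can vary with RNA preparation, and their part in the results was not tested.

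Levels of different genes were compared as RPKM, CPM divided by the exon length of the gene in kilobases. With DMSO at 4 h, the phosphatases PTPN11 and PTPN6 stood highest, at 56.4 ± 0.83 and 55.4 ± 0.012 RPKM (SD, n = 2). SH2B3 followed at 35.4 ± 0.12, UBASH3B at 29.3 ± 0.12 and PTPN1 at 19.2 ± 1.27 RPKM. CBL had 10.1 ± 1.23, PIAS1 7.77 ± 0.044 and PTPN2 4.22 ± 0.14 RPKM. CBLB was lowest at 0.572 ± 0.012 RPKM, so the 2 CBL ligases were present at very different levels. The order of close neighbours depended on the gene length used. With the longest transcript in place of all exons, PTPN6 led at 115.0 RPKM over PTPN11 at 65.0, UBASH3B (38.2) passed SH2B3 (37.2), and PTPN2 (10.6), CBL (10.6) and PIAS1 (10.3) lay within the spread of CBL.

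**Figure D1:**
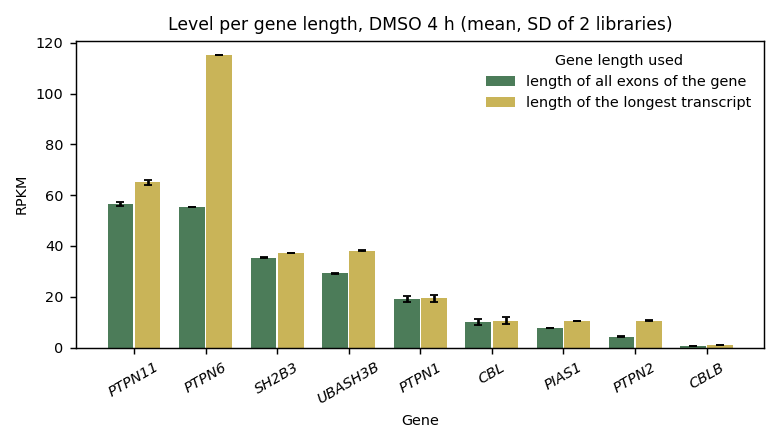
Level of each gene in RPKM (vertical axis) with DMSO at 4 h, for the 9 genes (horizontal axis); green bars use the length of all exons and yellow bars that of the longest transcript, with the SD of 2 libraries as error bars. PTPN11 and PTPN6 stand highest and CBLB lowest with either length.

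UBASH3B varied most of the 9 genes. It fell with every inhibitor at 4 h, and with ruxolitinib at 48 h it dropped to 19.5% of the DMSO level. Its 2 libraries held 264 and 263 CPM with DMSO at 4 h, against 118 and 114 with ruxolitinib, 131 and 138 with momelotinib, and 152 and 150.0 with pacritinib. With fedratinib they held 192 and 203 CPM, and with itacitinib 218 and 203. No library of any inhibitor reached the DMSO libraries at 4 h. At 48 h the DMSO libraries were both at 264 CPM and the ruxolitinib libraries at 52.8 and 50.3 CPM. Pacritinib (189 and 202 CPM), momelotinib (204 and 222) and itacitinib (236 and 221) lay between, and fedratinib, at 272 and 286 CPM, lay above DMSO. In bulk RNA, fewer cells that express a gene and less of its RNA per cell cannot be told apart. The highest group mean of UBASH3B was 5.42 times the lowest, whereas the median of this ratio over all tested genes was 1.47, which put UBASH3B at the 94.4th percentile.

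As log2 fold changes against DMSO of the same time, UBASH3B changed at 4 h by -1.19 ± 0.05 (SE) with ruxolitinib, -0.97 ± 0.05 with momelotinib and -0.80 ± 0.05 with pacritinib (adjusted p = 1.96e-17, 2.29e-14 and 2.49e-13). The changes with fedratinib (-0.42 ± 0.05, adjusted p = 4.14e-05) and itacitinib (-0.32 ± 0.05, adjusted p = 0.000804) were smaller. At 48 h the change was -2.36 ± 0.06 with ruxolitinib (adjusted p = 5.07e-25), and 94 of the 16076 tested genes, UBASH3B included, had a change as low or lower. It was -0.43 ± 0.05 with pacritinib (adjusted p = 2.01e-07) and -0.31 ± 0.05 with momelotinib (adjusted p = 0.000841). With itacitinib at 48 h the value was -0.21 ± 0.05 (adjusted p = 0.0531) and with fedratinib 0.08 ± 0.05 (adjusted p = 0.404), neither of which passed the threshold of 0.05. The itacitinib change was called with DESeq2 (adjusted p = 0.0109), without the low-count filter (0.0116), with libraries of 1 time point (0.0249) and with a replicate block (0.0402). The call for itacitinib at 4 h was lost without itacitinib replicate 2 (adjusted p = 0.165), and that for momelotinib at 48 h without momelotinib replicate 1 (adjusted p = 0.107).

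**Figure D2:**
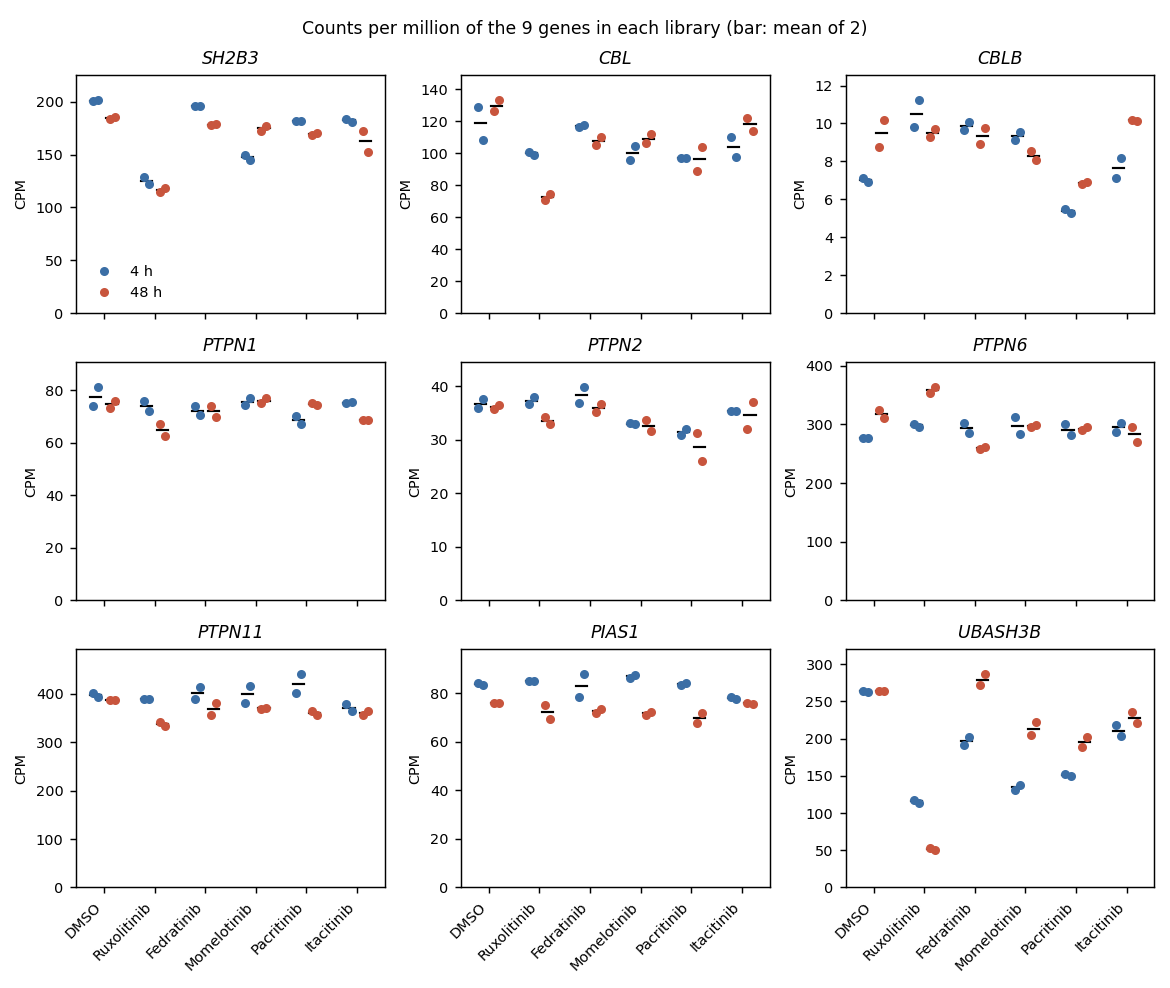
CPM (vertical axis, from 0) of each gene in every library, by treatment (horizontal axis), blue for 4 h and red for 48 h; points are single libraries and black bars the mean of 2. UBASH3B falls to 52.8 and 50.3 CPM with ruxolitinib at 48 h, while PTPN11 and PIAS1 stay in a narrow band.

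The adaptor SH2B3 fell with ruxolitinib at both times and with momelotinib at 4 h. It stood at 201 and 202 CPM with DMSO at 4 h, at 129 and 122 with ruxolitinib and at 150.0 and 145 with momelotinib. Fedratinib libraries were both at 196 CPM, pacritinib libraries both at 182, and itacitinib libraries at 184 and 181. The log2 fold change was -0.68 ± 0.05 with ruxolitinib (adjusted p = 3.45e-12) and -0.45 ± 0.05 with momelotinib (adjusted p = 7.99e-08). With pacritinib at 4 h it was -0.14 ± 0.05 (adjusted p = 0.0214), a call lost whichever of the 4 libraries was left out (adjusted p up to 0.143). At 48 h the DMSO libraries stood at 183 and 186 CPM, and the ruxolitinib libraries, at 114 and 119, were the lowest of all 24. That fall of -0.67 ± 0.05 (adjusted p = 1.69e-12) was the only SH2B3 call of edgeR at 48 h. Momelotinib libraries were back at 173 and 177 CPM. Itacitinib libraries spread from 152 to 173 CPM, with a log2 value of -0.19 ± 0.05 against DMSO (adjusted p = 0.0872, and called by DESeq2 at 0.0181). With pacritinib at 48 h the value was -0.13 ± 0.05 (adjusted p = 0.0705, and called by DESeq2 at 0.0491). Of the 10 inhibitor comparisons edgeR thus called 4 and DESeq2 6. The 5 comparisons of each time share its 2 DMSO libraries, for every gene described here.

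CBL, the ligase that targets active receptors and JAK2, was called lower in 7 of 10 inhibitor comparisons. Its clearest change was with ruxolitinib at 48 h, where it stood at 70.7 and 74.3 CPM against 126 and 133 with DMSO. The log2 fold change there was -0.84 ± 0.07 (adjusted p = 2.71e-11), 55.8% of the DMSO level. Pacritinib at 48 h, with 89.0 and 104 CPM, gave -0.43 ± 0.07 (adjusted p = 3.17e-05). These 2 calls were kept whichever library was left out. Fedratinib (105 and 110.4 CPM; -0.27 ± 0.07, adjusted p = 0.0122) and momelotinib (106 and 112 CPM; -0.25 ± 0.07, adjusted p = 0.0485) gave smaller falls at 48 h. The fedratinib call was lost without DMSO replicate 2 or fedratinib replicate 1, and the momelotinib call without any 1 of its 4 libraries (adjusted p up to 0.148 and 0.392).

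At 4 h the 2 DMSO libraries of CBL lay apart, at 129 and 109 CPM. Ruxolitinib libraries held 101 and 98.8 CPM, momelotinib libraries 95.8 and 105, and pacritinib libraries 97.2 and 97.0, all below both DMSO libraries. The log2 fold changes were -0.25 ± 0.07, -0.24 ± 0.07 and -0.29 ± 0.07 (adjusted p = 0.0193, 0.0289 and 0.0016). Without DMSO replicate 1 the values were nearer 0 and not called, with adjusted p of 0.512, 0.565 and 0.147. The ruxolitinib call was also lost without either ruxolitinib library, and the momelotinib call without momelotinib replicate 1. Fedratinib libraries, at 116 and 117 CPM, lay between the DMSO libraries.

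CBLB, the second ligase of the family, was called higher at 4 h with ruxolitinib and momelotinib, where CBL was called lower, and with fedratinib, while with pacritinib both were called lower. It stood at 7.13 and 6.91 CPM with DMSO, at 9.80 and 11.2 with ruxolitinib, at 9.67 and 10.1 with fedratinib and at 9.14 and 9.53 with momelotinib. Pacritinib libraries were below DMSO at 5.48 and 5.30 CPM, and itacitinib libraries, at 7.10 and 8.18, overlapped it. The log2 fold changes were 0.59 ± 0.11 with ruxolitinib (adjusted p = 0.000377), 0.49 ± 0.11 with fedratinib (adjusted p = 0.0154), 0.41 ± 0.11 with momelotinib (adjusted p = 0.0178) and -0.38 ± 0.12 with pacritinib (adjusted p = 0.0127). The ruxolitinib call was kept whichever library was left out (adjusted p up to 0.0304). The fedratinib and momelotinib calls were lost without any 1 of their 4 libraries (adjusted p up to 0.193 and 0.145), and the pacritinib call in 3 of 4 such fits, without DMSO replicate 1, DMSO replicate 2 or pacritinib replicate 2. At 48 h the DMSO libraries, at 8.76 and 10.2 CPM, overlapped those of ruxolitinib (9.27 and 9.73), fedratinib (8.89 and 9.75) and itacitinib (both 10.2). Only pacritinib was called at 48 h, at 6.80 and 6.94 CPM (-0.46 ± 0.11, adjusted p = 0.00336), and this was lost without DMSO replicate 2 (adjusted p = 0.0987).

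**Figure D3:**
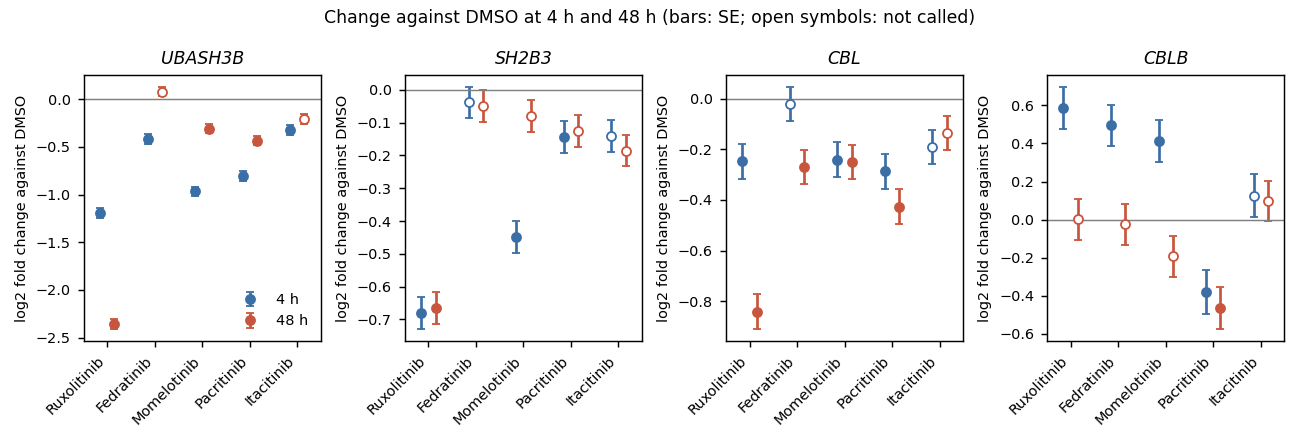
Log2 fold change against DMSO of the same time (vertical axis, a scale of its own in each panel) for UBASH3B, SH2B3, CBL and CBLB with each inhibitor (horizontal axis), blue at 4 h and red at 48 h; error bars are SE and open symbols were not called. With ruxolitinib UBASH3B moves from -1.19 at 4 h to -2.36 at 48 h, SH2B3 stays at -0.68 and -0.67, and CBLB moves from 0.59 to near 0.

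The PTPN phosphatases among the members changed little. PTPN6, which binds the erythropoietin receptor and dephosphorylates JAK2, held 325 and 311 CPM with DMSO at 48 h, 354 and 363 with ruxolitinib and 258 and 262 with fedratinib. The groups did not overlap, and the log2 fold changes were 0.17 ± 0.05 with ruxolitinib (adjusted p = 0.00945) and -0.29 ± 0.05 with fedratinib (adjusted p = 0.000229). The ruxolitinib call was lost without DMSO replicate 2 or ruxolitinib replicate 2 (adjusted p up to 0.0977), whereas the fedratinib call was kept whichever library was left out. PTPN6 was not called at 4 h. Its ERK-side relative PTPN11 held 341 and 333 CPM with ruxolitinib at 48 h against 387 in both DMSO libraries, a change of -0.20 ± 0.05 (adjusted p = 0.00197). No other inhibitor changed PTPN11 against DMSO at the threshold.

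PTPN1, which dephosphorylates JAK2 and TYK2, was called lower in 2 comparisons. It held 67.0 and 62.7 CPM with ruxolitinib at 48 h against 73.2 and 76.0 with DMSO (-0.20 ± 0.05, adjusted p = 0.00523). With pacritinib at 4 h it held 70.3 and 67.2 CPM against 73.8 and 81.1 (-0.17 ± 0.05, adjusted p = 0.0129). PTPN2, which acts on JAK1, JAK3 and STATs, was called lower with pacritinib only, at both times. It stood at 30.9 and 31.9 CPM against 35.9 and 37.6 with DMSO at 4 h (-0.23 ± 0.07, adjusted p = 0.0193), and at 31.3 and 26.1 CPM against 35.7 and 36.5 at 48 h (-0.33 ± 0.08, adjusted p = 0.00195). Each of these 4 calls was lost in at least 1 fit without a library: for PTPN1 without DMSO replicate 2 or replicate 2 of the inhibitor at either time, for PTPN2 at 4 h without DMSO replicate 2 or either pacritinib library, and at 48 h without pacritinib replicate 2 (adjusted p up to 0.362). PIAS1 was called in 0 of 10 inhibitor comparisons by edgeR, with log2 values from -0.12 to 0.06 and adjusted p from 0.118 to 0.987. DESeq2 also called it in 0, and 1 of the 10 had an unadjusted p under 0.05. Its libraries ranged from 67.9 to 87.7 CPM.

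Counted by inhibitor at 4 h, ruxolitinib raised 1 of the 9 genes and lowered 3, where 3.42% of all tested genes were called higher and 5.04% lower. Momelotinib likewise raised 1 and lowered 3 (2.21% and 3.79% of all genes), and fedratinib raised 1 and lowered 1 (0.616% and 0.97%). Pacritinib raised 0 and lowered 6, where it raised 13.1% and lowered 17.4% of all tested genes. Itacitinib raised 0 and lowered 1 (0.672% and 0.106%). At 48 h, ruxolitinib raised 1 and lowered 5, against 12.5% and 13.2% of all genes. Pacritinib lowered 4 and raised 0 (10.1% lower, 8.26% higher), fedratinib lowered 2 and raised 0 (4.04% and 3.66%), and momelotinib lowered 2 and raised 0 (0.946% and 0.995%). Itacitinib at 48 h changed 0 of the 9 by edgeR, where 0.355% of genes were called lower and 0.0871% higher. In that comparison 5 of the 9 had an unadjusted p under 0.05, and DESeq2 called 3 of them (SH2B3, PTPN6 and UBASH3B, all lower). The median log2 fold change of the 9 genes lay between -0.20 (ruxolitinib, 48 h) and -0.01 (fedratinib, 4 h), beside medians of all genes between -0.01 and 0.01. Of the 31 calls against DMSO, 14 were made in every fit tried: 6 of UBASH3B, 3 of SH2B3, 2 of CBL and 1 each of CBLB, PTPN6 and PTPN11.

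**Figure D4:**
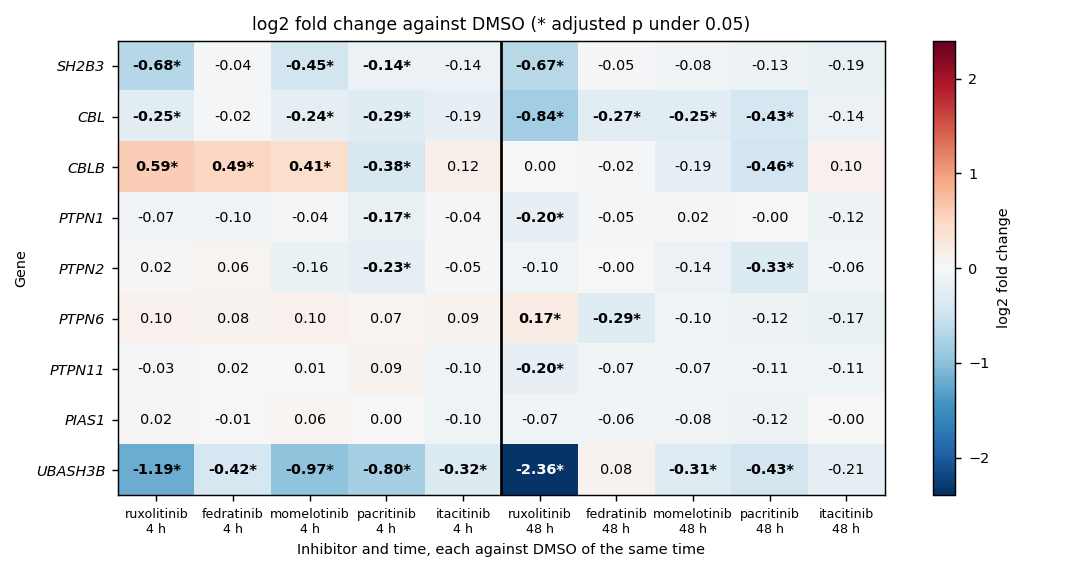
Log2 fold change of each gene (rows) with each inhibitor against DMSO of the same time (columns, 4 h left of the line and 48 h right), blue for lower and red for higher; bold values with an asterisk had an adjusted p under 0.05. UBASH3B is called in 8 of 10 columns, CBL in 7 and PIAS1 in 0.

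Time in DMSO alone changed 2 of the 9 genes, both higher at 48 h than at 4 h, where 4.04% of all genes were called higher and 4.12% lower. CBLB rose by 0.44 ± 0.11 on the log2 scale (adjusted p = 0.011) and PTPN6 by 0.20 ± 0.05 (adjusted p = 0.0105). Both calls were lost in 3 of 4 fits without a library, without either DMSO library of 4 h and, at 48 h, without replicate 2 for CBLB and without replicate 1 for PTPN6. UBASH3B did not pass the test, at 0.00 ± 0.05 (adjusted p = 0.989). The 48 h values of each inhibitor are therefore set against DMSO of 48 h.

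Whether an inhibitor's change against DMSO differed between the times was tested directly, as the change at 48 h minus that at 4 h. With ruxolitinib the difference was called for 3 of the 9 genes, where 8.72% of all genes were called. UBASH3B and CBL fell further, with log2 differences of -1.17 ± 0.08 (adjusted p = 1.23e-12) and -0.59 ± 0.10 (adjusted p = 7.37e-05), while for CBLB the difference was -0.59 ± 0.15 (adjusted p = 0.0119, and up to 0.102 in the 4 of 8 fits without a library that lost the call). For SH2B3 the difference was 0.02 ± 0.07. With momelotinib the changes of UBASH3B and SH2B3 were smaller at 48 h, by 0.66 ± 0.07 and 0.37 ± 0.07 (adjusted p = 5.91e-07 and 0.00169), and CBLB gave -0.61 ± 0.15 (adjusted p = 0.0295), 3 genes where 2.33% of all were called. That CBLB call was kept in 2 of 8 fits without a library (adjusted p up to 0.2). With fedratinib 3 were called (4.12% of all): UBASH3B at 0.50 ± 0.07, CBLB at -0.52 ± 0.15 and PTPN6 at -0.38 ± 0.07. The CBLB call (adjusted p = 0.0483) was kept in 2 of 8 fits without a library and lost without the low-count filter (0.0861), where CBL was called in its place (-0.26, adjusted p = 0.0389). With pacritinib 2 were called (17.9% of all), UBASH3B at 0.37 ± 0.07 and PTPN11 at -0.19 ± 0.07. The PTPN11 call (adjusted p = 0.0492) was kept in 1 of 8 fits without a library (adjusted p up to 0.287). PTPN6, at -0.19 ± 0.07, was not called (adjusted p = 0.0629) but was under 4 alternatives: DESeq2 (0.031), the stricter low-count filter (0.0472), the replicate block (0.0476) and RLE scaling (0.0488). With itacitinib edgeR and DESeq2 called 0 of the 9, 1 had an unadjusted p under 0.05, and 0.0124% of all genes were called. The CBLB differences share the DMSO libraries, in which the mean of CBLB went from 7.02 CPM at 4 h to 9.48 at 48 h. Its mean went from 10.5 to 9.50 CPM with ruxolitinib, from 9.87 to 9.32 with fedratinib and from 9.34 to 8.30 with momelotinib. Thus UBASH3B moved further from DMSO with time for ruxolitinib and nearer to it for fedratinib, momelotinib and pacritinib, each by the test of the difference.

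Each of the other inhibitors was also compared with ruxolitinib at the same dose and time, which gave 8 comparisons. At 4 h UBASH3B and SH2B3 were higher than with ruxolitinib in all 4. UBASH3B was higher by 0.77 ± 0.05 with fedratinib, 0.87 ± 0.05 with itacitinib, 0.39 ± 0.05 with pacritinib and 0.22 ± 0.05 with momelotinib, and SH2B3 by 0.64 ± 0.05, 0.54 ± 0.05, 0.54 ± 0.05 and 0.23 ± 0.05 in the same order. These were the 2 members called with fedratinib (3.52% of all genes called) and with momelotinib (0.722%). With fedratinib CBL, at 0.23 ± 0.07 (adjusted p = 0.0632), was called as well when no low-count filter was used (adjusted p = 0.00362). The 2 momelotinib calls were weak: UBASH3B was lost without either ruxolitinib library or momelotinib replicate 2, and SH2B3 without either ruxolitinib library or momelotinib replicate 1 (adjusted p up to 0.305 and 0.26). Pacritinib had 4 members called (25.6% of all genes), with CBLB (-0.97 ± 0.11) and PTPN2 (-0.25 ± 0.07) lower beside them. Itacitinib had 3 (5.9%), with CBLB at -0.46 ± 0.11. The PTPN2 call was lost without ruxolitinib replicate 2 or pacritinib replicate 1, and the itacitinib call of CBLB without ruxolitinib replicate 2 or itacitinib replicate 1 (adjusted p up to 0.105 and 0.147).

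At 48 h the gap to ruxolitinib was larger for UBASH3B. It was 541% of the ruxolitinib level with fedratinib, 443% with itacitinib, 414% with momelotinib and 379% with pacritinib (log2 2.44, 2.15, 2.05 and 1.92, each ± 0.06, adjusted p of 2.4e-22 or less). SH2B3 was higher by 0.48 to 0.62 and CBL by 0.41 to 0.71 in these 4 comparisons, and PTPN6 was lower, with values from -0.47 to -0.27. All of these SH2B3, CBL, PTPN6 and UBASH3B calls were kept whichever library was left out. They made up the 4 members called with fedratinib, where 20.6% of all genes were called, and the 4 called with itacitinib (21.9%). With fedratinib PTPN1 and PTPN11 were called as well, making 6, with DESeq2, the replicate block or libraries of 1 time point, and PTPN1 also with the stricter low-count filter. With momelotinib 6 were called (21% of all genes), PTPN1 at 0.23 ± 0.05 and PTPN11 at 0.13 ± 0.05 being added, and with pacritinib 7 (24.6%), with PTPN1 at 0.20 ± 0.05, CBLB at -0.47 ± 0.11 and PTPN2 at -0.23 ± 0.08 added. Both PTPN1 calls were lost without ruxolitinib replicate 2 (adjusted p = 0.0695 with momelotinib and 0.113 with pacritinib). The PTPN11 call (adjusted p = 0.0499) was lost without any 1 of its 4 libraries (adjusted p up to 0.245). The PTPN2 call was lost without either ruxolitinib library or pacritinib replicate 2, where the value was -0.10 (adjusted p = 0.473). All comparisons with ruxolitinib share its 2 libraries of that time.

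The SOCS family, which includes feedback inhibitors that STATs induce, had 8 members tested. The counts for this and the next 4 gene lists stand beside shares of all tested genes of 3.42% higher and 5.04% lower with ruxolitinib at 4 h and 12.5% and 13.2% at 48 h. With pacritinib those shares were 13.1% and 17.4% at 4 h and 8.26% and 10.1% at 48 h, and with the other inhibitors they were at most 4.04%. Ruxolitinib at 4 h lowered 4 of the 8, with a median of -0.39 against 0.00 for all genes, among them SOCS3 (-2.61 ± 0.15), SOCS1 (-2.09 ± 0.18) and CISH (-1.76 ± 0.08). Momelotinib lowered 3, pacritinib 5 while raising 1, and fedratinib 1. Itacitinib changed 0 by edgeR, by DESeq2 and at an unadjusted p under 0.05. At 48 h ruxolitinib lowered 4 (SOCS1 at -1.77 ± 0.19 and SOCS3 at -1.69 ± 0.13 among them), and CISH was then at -0.33 ± 0.08. Pacritinib raised 3 at 48 h, SOCS3 by 0.46 ± 0.12, CISH by 0.43 ± 0.07 and SOCS2 by 0.31 ± 0.08, while edgeR and DESeq2 called 0 with fedratinib, momelotinib and itacitinib, of which 2, 2 and 0 had an unadjusted p under 0.05. UBASH3B thus fell further with ruxolitinib at 48 h than at 4 h, while the CISH change was smaller at 48 h by 1.44 ± 0.11 and that of SOCS3 by 0.91 ± 0.21.

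Of 22 relatives of the members (other SH2B adaptors, CBL and PIAS proteins, UBASH3A and further tyrosine phosphatases), 19 were tested. Ruxolitinib lowered 2 at 4 h (PTPRE at -1.08 ± 0.22 and PTPN7 at -0.15 ± 0.04) and lowered 8 and raised 1 at 48 h. The largest falls at 48 h were those of the receptor-like phosphatase PTPRE (-1.28 ± 0.24), PTPN13 (-0.68 ± 0.08) and PTPN12 (-0.59 ± 0.07). Pacritinib lowered 10 and raised 1 at 4 h, with a median of -0.27, and lowered 5 and raised 2 at 48 h. Fedratinib lowered 1 and then 3, momelotinib 2 and then 1, and itacitinib raised 1 (SH2B1, by 0.28 ± 0.07) at 4 h. At 48 h itacitinib changed 0 of them by edgeR and by DESeq2, and 4 had an unadjusted p under 0.05. UBASH3A, the lymphoid relative of UBASH3B, was lower with each other inhibitor than with ruxolitinib at 48 h, where UBASH3B was higher. The UBASH3A values were -0.64 ± 0.09 with fedratinib, -0.45 ± 0.08 with itacitinib, -0.33 ± 0.08 with pacritinib and -0.32 ± 0.08 with momelotinib.

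Among 19 JAKs, STATs and receptors on which these proteins act, all tested, ruxolitinib raised 5 and lowered 4 at 4 h, and raised 10 and lowered 4 at 48 h. The erythropoietin receptor EPOR rose by 0.50 ± 0.07 and then 1.00 ± 0.07, the shared cytokine receptor chain CSF2RB by 0.37 ± 0.05 and then 0.79 ± 0.05, and JAK2 by 0.27 ± 0.05 and then 0.70 ± 0.05. EPOR and JAK2, both bound by SH2B3, were thus higher in the ruxolitinib libraries, where SH2B3 was lower. At 48 h EPOR was also called higher with fedratinib (0.39 ± 0.07) and pacritinib (0.28 ± 0.07), where edgeR did not call SH2B3. A link between these changes was not tested. Momelotinib raised EPOR (0.37 ± 0.07), CSF2RB (0.25 ± 0.05) and JAK2 (0.25 ± 0.05) at 4 h, and lowered 1. At 48 h it raised 1 and lowered 1, CSF2RB (-0.24 ± 0.05). Pacritinib raised 3 and lowered 2 of the 19 at 4 h, near its shares of all genes, and raised 3 and lowered 1 at 48 h, and fedratinib raised 3 and lowered 1 at 48 h. By edgeR fedratinib at 4 h and itacitinib at 4 h and 48 h changed 0, where DESeq2 called 1, 0 and 1, and 3, 8 and 3 had an unadjusted p under 0.05.

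Of 23 signalling partners of CBL and SHP-2, all tested, ruxolitinib lowered 6 and raised 1 at 4 h, and lowered 8 and raised 4 at 48 h. SPRED1, an inhibitor of RAS-ERK signalling, fell at both times (-0.81 ± 0.06 and -0.89 ± 0.06), and SPRY1, of the Sprouty family that binds CBL, fell by 1.10 ± 0.19 at 48 h. The docking protein GAB1, which binds PTPN11, rose by 0.33 ± 0.07 and then 0.74 ± 0.07. Pacritinib lowered 11 and raised 1 at 4 h, among them SPRED1 (-0.68 ± 0.06) and SOS1 (-0.60 ± 0.06), and lowered 5 and raised 1 at 48 h. Momelotinib lowered 4 and raised 1 at 4 h and at 48 h changed 0 by edgeR, where DESeq2 called 1 and 3 had an unadjusted p under 0.05. Fedratinib and itacitinib each lowered 1 at 4 h, VAV1 (-0.19 ± 0.05) and SPRED1 (-0.23 ± 0.05). At 48 h fedratinib lowered 1, LYN (-0.29 ± 0.05), and raised 1, GAB3 (0.27 ± 0.07), where DESeq2 called 3. Itacitinib at 48 h changed 0 by edgeR, where DESeq2 called 2 and 6 had an unadjusted p under 0.05.

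Of 14 readout genes of JAK-STAT and ERK signalling, 13 were tested in the same libraries. Ruxolitinib lowered 12 of 13 at 4 h and 11 at 48 h, with medians of -1.69 and -1.28. Momelotinib and pacritinib each lowered 11 at 4 h (medians -0.787 and -0.997), fedratinib 6 and itacitinib 1. The ERK-induced phosphatase DUSP6 fell at 4 h with ruxolitinib (-2.73 ± 0.15), momelotinib (-1.24 ± 0.12) and pacritinib (-1.58 ± 0.13). At 48 h momelotinib lowered 3, pacritinib lowered 7 and raised 2, fedratinib lowered 1 and raised 3, and itacitinib lowered 2. The ETS factors ETV4 and ETV5, which ERK signalling induces, were at -4.18 ± 0.16 and -3.18 ± 0.09 with ruxolitinib at 48 h. Whether any of these readout genes bears on a member was not tested.

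Over the 12 group means of log2 CPM, the genes whose pattern was most like that of UBASH3B were CD33 (Pearson r = 0.985), KIF21B (0.984), GP6 (0.981), ETV5 (0.969) and STAB1 (0.959). For SH2B3 they were ZNF175 (0.948) and SLC2A3 (0.941), then RHOH, PRKD2 and MCL1, and for CBL they were RAI14 (0.949), ABCD3 (0.945) and EIF4G3 (0.939). CBLB was most like TCF4 and ICK (both 0.927) and PTPN6 most like IFIH1 (0.919), while PTPN11 was most like LPIN1 and DNMT1 (both 0.973). Among the members themselves, UBASH3B had r = 0.884 with CBL, 0.861 with SH2B3 and -0.762 with PTPN6, and PTPN11 had 0.807 with PIAS1. These are descriptions over 12 points that share libraries and 2 time points. The ruxolitinib group of 48 h is an extreme point for UBASH3B, SH2B3, CBL, PTPN1, PTPN6 and PTPN11.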

How the data were processed

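RNA sequencing covered 24 libraries of HEL cells in 12 groups of 2, with total counts of 32153866 to 56618281 per library. The authors deposited 1 table of whole-number read counts per gene. Per the submitters' processing notes, bcl2fastq, STAR 2.5.1a, edgeR and GRCh38 were used, while the counter, the annotation and the strand setting go unstated in the sources used here. Of 34343 rows, 130 repeated an identifier, which left 34213 genes. A column of transcript numbers per gene was not used.

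Counts were filtered with filterByExpr, scaled by TMM and fitted with edgeR 4.0.16 (R 4.3.3, limma 3.58.1), with the quasi-likelihood test and 1 mean per group over all 24 libraries (12 residual degrees of freedom). P-values were adjusted over 16076 genes with the Benjamini-Hochberg method and called under 0.05. The SE is the absolute log2 fold change divided by the square root of F. CPM use TMM-scaled library sizes, except for the cell markers and the stricter filter, where total counts were used. RPKM use GENCODE 29 exon lengths, and promoters come from RefSeq (GRCh38.p14). The test was tested on simulated data. Alternatives were DESeq2 1.42.0, RLE scaling, no filter, a stricter filter (1 CPM in 6 libraries), libraries of 1 time point, a replicate block, and leaving out each library in turn, its lone partner then being assumed to vary like the other groups. Text names all 9 genes, up to 4 called genes per list and comparison, and up to 5 genes most like each called member (mean log2 CPM of at least 3). Members and lists were chosen with earlier results of these data known.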

Additional observations from a re-analysis of the deposited data

Results flagged for a closer look

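The change against DMSO differed between 4 h and 48 h, by the edgeR test of that difference, in 11 cases among these 9 genes, given here as the log2 change at 48 h minus that at 4 h. With ruxolitinib it was -1.17 for UBASH3B, -0.59 for CBL and -0.59 for CBLB. UBASH3B gave 0.66 with momelotinib, 0.50 with fedratinib and 0.37 with pacritinib, so the sign with ruxolitinib was opposite to that with these 3 inhibitors. SH2B3 gave 0.37 with momelotinib and PTPN6 gave -0.38 with fedratinib. Apart from CBLB with ruxolitinib, each of these differences was called whichever of 8 libraries was left out. CBLB gave -0.61 with momelotinib and -0.52 with fedratinib, and PTPN11 gave -0.19 with pacritinib. The CBLB differences share the DMSO libraries, in which the mean of CBLB rose from 7.02 CPM at 4 h to 9.48 at 48 h. The call for CBLB was kept in 4 of 8 fits without a library with ruxolitinib and in 2 of 8 each with momelotinib and fedratinib, and that for PTPN11 in 1 of 8.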

How the results depend on the processing

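Over all tested genes the replicate numbers showed no pairing of the libraries: in 30 pairs of same-time groups, deviations of same-numbered libraries correlated at -0.0377 to 0.048. Such a correlation cannot decide whether a part of the genes was paired. With the replicate number as a block, 1 of the 9 genes was called with itacitinib at 48 h in place of 0. The count there was also 3 with DESeq2, 1 with no filter and 1 with libraries of 1 time point. Momelotinib against ruxolitinib at 4 h gave 1 in place of 2 with 1 time point. Of 129 member differences not called in any fit, 50 changed sign in at least 1, all within 0.11 of 0. With a library left out, the genes called ranged from 1 to 1 with fedratinib at 4 h (all libraries, 2), 2 to 3 with momelotinib (4), 2 to 4 with pacritinib (6) and 0 to 1 with itacitinib (1). At 48 h they ranged from 1 to 2 with fedratinib (2), 0 to 1 with momelotinib (2) and 0 to 2 with itacitinib (0). They ranged from 0 to 1 for time in DMSO (2), 1 to 2 for the pacritinib difference between times (2) and 0 to 1 for momelotinib against ruxolitinib at 4 h (2). Smaller moves, taken as ratios, are not listed. The counts with ruxolitinib at 4 h and 48 h and with pacritinib at 48 h, each against DMSO, also fell in some of these fits. The cause of these moves was not tested, beyond the smaller number of libraries.

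Counts over all genes moved as well, and only the larger moves, taken as ratios, are given. Fedratinib at 4 h gave 255 calls, 391 with DESeq2, 416 with no filter and 110 with 1 time point. Itacitinib at 4 h gave 125, 203 with no filter and 55 with 1 time point. Momelotinib at 48 h gave 312, 519 with DESeq2 and 533 with 1 time point. Itacitinib at 48 h gave 71, 149 with DESeq2, 189 with no filter and 145 with 1 time point, and its difference between times 2, 9 with DESeq2 and 50 with no filter. Momelotinib against ruxolitinib at 4 h gave 116, 186 with no filter and 60 with 1 time point. With a library left out, calls against DMSO at 4 h were 760 to 870 (ruxolitinib, 1361 with all), 40 to 151 (fedratinib), 457 to 781 (momelotinib, 965), 3273 to 4027 (pacritinib, 4914) and 2 to 194 (itacitinib). At 48 h they were 366 to 1002 (fedratinib, 1238), 25 to 87 (momelotinib), 1475 to 2208 (pacritinib, 2948) and 0 to 77 (itacitinib), and for time in DMSO 499 to 701 (1312). For itacitinib the fewest calls at either time came from the fit without its replicate 2. For the difference between times they were 921 to 1141 (ruxolitinib, 1402), 228 to 714 (fedratinib, 662), 132 to 494 (momelotinib, 375), 1835 to 2738 (pacritinib, 2881) and 1 to 11 (itacitinib). Against ruxolitinib at 4 h they were 209 to 422 (fedratinib, 566), 29 to 121 (momelotinib), 2484 to 3242 (pacritinib, 4111) and 406 to 728 (itacitinib, 948), and at 48 h 2162 to 2483 (fedratinib, 3309), 2197 to 2467 (momelotinib, 3371) and 2259 to 2585 (itacitinib, 3521). CBLB, at 7.02 CPM with DMSO at 4 h, is the member whose level most limits precision, with an SE near 0.11 where CBL has 0.07.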
